A study of Mus musculus with 2 samples.

Results

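The genes described here are the interferon-stimulated and guanylate-binding genes of the mouse ovary, a set of 40 genes known to be induced by type I interferons, by interferon gamma or by both. Of these, 38 were listed among the 22204 gene names of 2 Slide-seq sections, and Mx1 and Mx2 had no row in either table and were not analysed here. Slide-seq lays a thin tissue section on an array of barcoded beads of known position, so that each count of a messenger RNA carries a position. One section came from an old ovary, at about 14 months (replicate 1), and the other from a young ovary, at 2 months (replicate 3). Both were 10 µm cryosections of whole ovaries of C57BL6/J female mice with no treatment named, and regions with several oocytes in view had been looked for before capture. Each age cohort had 2 females, and the labels do not say which animal a section came from. With 1 library per age, no test between ages was possible, and the intervals given below are exact 95% intervals that cover counting error only. A bead can collect RNA from several cells, and fewer cells of a type cannot be told apart from less RNA per cell.

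Type I interferons bind the receptor made of Ifnar1 and Ifnar2 and act through Jak1 and Tyk2 on a complex that holds Stat2 and Irf9 and binds the interferon-stimulated response element and induces the Ifit, Isg15 and Oas genes. Interferon gamma, made mainly by T and natural killer cells, binds Ifngr1 and Ifngr2 and acts through Jak1 and Jak2 on genes with a gamma-activated site, and it is the main inducer of the guanylate-binding proteins (Gbp), the immunity-related GTPases (Irgm1, Irgm2, Igtp, Iigp1) and the immunoproteasome subunits Psmb8 and Psmb9. The split is one of degree, since many members answer to both. Here 17 listed members were set as type I-linked, 14 as gamma-linked and 7 in neither class (Bst2, Stat2, Irf9, Ifi27, Ifi35, Parp14 and Trim25).

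Promoter windows from RefSeq, on the GRCm38.p6 assembly, held 250 bases before and 50 bases after the annotated start, and 28 of the 38 listed members had one. The response element was searched as GAAANNGAAA and the gamma-activated site as TTCNNNGAA, on both strands. The first was in the windows of 8 of 13 type I-linked and 7 of 10 gamma-linked members, against 3.99% of the 27025 genes with a window. The second was in those of 2 of 13 type I-linked and 6 of 10 gamma-linked members, against 9.55% of genes. The 2 motifs overlapped in the window of Bst2 and in no other member. The 4 windows below are shown, those of the most counted members of each class that hold the motif of their class, because they hold the elements through which the 2 pathways are known to act; capitals mark either motif. Gbp7 (chr3:142530086-142530385, plus strand) and Psmb8 (chr17:34197945-34198244, plus strand) stand for the gamma-linked class. Ifih1 (chr2:62646206-62646505, minus strand) and Ddx58 (chr4:40239776-40240075, minus strand) stand for the type I-linked class, and in both of these the motif lies just after the annotated start.
Gbp7: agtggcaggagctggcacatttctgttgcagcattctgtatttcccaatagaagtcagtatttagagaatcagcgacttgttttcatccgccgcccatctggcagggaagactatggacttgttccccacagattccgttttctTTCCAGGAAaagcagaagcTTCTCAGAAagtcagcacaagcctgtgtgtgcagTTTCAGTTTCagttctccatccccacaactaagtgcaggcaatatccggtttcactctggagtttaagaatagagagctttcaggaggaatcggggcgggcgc
Psmb8: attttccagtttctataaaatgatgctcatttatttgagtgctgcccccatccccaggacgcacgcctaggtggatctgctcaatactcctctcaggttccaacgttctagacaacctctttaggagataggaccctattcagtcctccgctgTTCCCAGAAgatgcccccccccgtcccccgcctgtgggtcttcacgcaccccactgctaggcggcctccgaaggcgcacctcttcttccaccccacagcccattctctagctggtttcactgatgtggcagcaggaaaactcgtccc
Ifih1: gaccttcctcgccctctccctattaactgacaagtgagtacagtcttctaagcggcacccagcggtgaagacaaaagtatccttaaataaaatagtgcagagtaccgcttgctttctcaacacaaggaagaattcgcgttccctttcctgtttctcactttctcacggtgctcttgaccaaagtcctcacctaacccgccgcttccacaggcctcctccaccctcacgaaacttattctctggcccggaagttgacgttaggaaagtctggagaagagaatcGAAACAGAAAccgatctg
Ddx58: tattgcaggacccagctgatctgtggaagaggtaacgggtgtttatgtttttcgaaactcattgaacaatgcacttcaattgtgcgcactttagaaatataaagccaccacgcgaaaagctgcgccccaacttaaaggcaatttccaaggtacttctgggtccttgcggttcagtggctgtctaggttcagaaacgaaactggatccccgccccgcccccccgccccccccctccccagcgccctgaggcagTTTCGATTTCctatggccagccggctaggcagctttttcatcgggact
The Gbp7 window holds both kinds of motif, and those of Psmb8, Ifih1 and Ddx58 hold only that of their class. A match of letters is a description and not a binding site.

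The sections held 2348768 counts on 10267 beads in the old ovary and 5158314 counts on 21403 beads in the young ovary, with a median of 125 and 153 counts per bead, and no barcode was shared. The tissue make-up of the sections differed. Summed marker lists, with every gene of the list counted in both sections unless stated, stood at 520 CPM (counts per 1000000 counts of the section) in the old section, against 111 CPM in the young for surface epithelium (9 genes), at 1662 and 7502 CPM for granulosa cells (8 genes), at 706 and 6367 CPM for theca cells (3 genes) and at 193 and 2614 CPM for oocytes (11 genes). A list of genes of the periovulatory follicle (9 genes, with Ptgs2, Areg and Has2 at 0 in the young section) stood at 1574 and 29.9 CPM. Macrophage markers (14 genes) were close, at 942 CPM in the old section, against 988 CPM in the young. T, natural killer and innate lymphoid markers were sparse, with 60 counts in the old section, against 80 counts in the young, with Gzma at 0 in the old and Cd8a at 0 in the young section. B and plasma cell markers (7 genes) stood at 55.8 and 9.69 CPM, with Cd79a at 0 in the old and Igha at 0 in the young section. Luteal (6 genes), stromal fibroblast (6 genes) and blood endothelium (11 genes) lists stood at 4652, 837 and 450 CPM in the old section and at 3080, 607 and 307 CPM in the young one. The part of these differences in the results between ages was not tested, and values within bins picked by some of the same marker lists are given below.

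The 38 members together were higher in the old section, with 3722 counts (1585 CPM), against 5492 counts (1065 CPM) in the young. Their old over young ratio was 1.49 (1.43 to 1.55). A gene counted at least 20 times in 1 section or the other was taken as measured, which 32 members were. Of these, 22 were at least 1.5-fold higher and 2 at least 1.5-fold lower in the old section, against 22.6% and 25.4% of the 12586 genes measured the same way. The median ratio was 1.77 over the measured members and 0.988 over all measured genes. Both classes were higher: type I-linked members stood at 237 CPM in the old section, against 135 CPM in the young (ratio 1.75, 1.56 to 1.96), gamma-linked members at 404 and 279 CPM (1.45, 1.33 to 1.57). The gamma-linked ratio was 1.76 without Gbp7, the most counted gamma-linked member. Members in neither class stood at 944 and 651 CPM, a ratio of 1.45. Gamma-linked counts made up 63.0% (60.5 to 65.5%) of the counts of both classes in the old section, against 67.4% (65.3 to 69.4%) in the young. Without Gbp7 the shares were 60.8% and 60.7%.

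**Figure D1:**
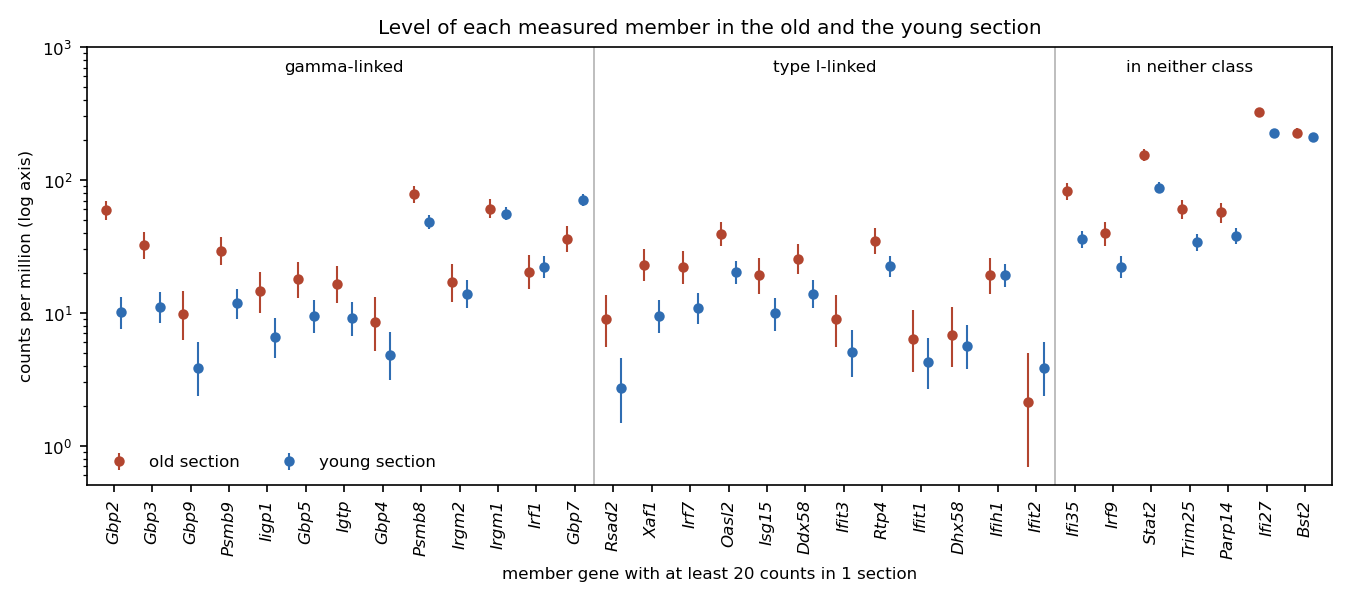
Level of the 32 measured members in the old (red, left) and young (blue, right) section, in CPM on a log axis, grouped by class; bars are exact 95% Poisson intervals. Gbp2 stands at 59.2 CPM in the old section, against 10.1 CPM in the young, and Gbp7 at 36.2 and 70.2 CPM.

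Because a section has no replicate, each was also cut into 4 quadrants at the median bead position, as a look at evenness and not as replicates. The members together stood at 1310 to 1978 CPM over the 4 quadrants of the old section and at 944 to 1221 CPM over those of the young section, so that every old quadrant lay above every young one. The same held singly for 13 of the 32 measured members, against 16.6% of all measured genes. Only Gbp7 had every old quadrant below every young one, which 18.6% of all measured genes had. Gbp2, Gbp3, Gbp9, Igtp, Iigp1, Psmb8, Psmb9, Irf7, Ddx58, Xaf1, Stat2, Ifi35 and Trim25 were the 13, and the quadrants of the remaining 18 measured members overlapped.

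Among the type I-linked effectors, the oligoadenylate synthetases make the messenger that switches on RNase L, the Ifit proteins bind foreign RNA, and Isg15 is a ubiquitin-like modifier. Oasl2 had 92 counts (39.2 CPM) in the old section, against 104 counts (20.2 CPM) in the young, a ratio of 1.94 (1.45 to 2.60). Isg15 had 45 counts (19.2 CPM) and 51 counts (9.89 CPM), a ratio of 1.94 (1.27 to 2.95), and Usp18, which removes Isg15, had 12 and 16 counts and was under the minimum. The 2 other Oas members were also under it, with 12 and 3 counts for Oas2 and 7 and 6 counts for Oas1a. Rsad2, the antiviral enzyme viperin, stood at 21 counts (8.94 CPM) in the old section, against 14 counts (2.71 CPM) in the young, which gives 3.29 (1.60 to 7.0).

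Ifit genes were too sparse to set the sections apart. Ifit1 had 15 counts in the old section, against 22 in the young (ratio 1.50, 0.722 to 3.02), Ifit3 had 21 and 26 (1.77, 0.949 to 3.28) and Ifit2 had 5 and 20 (0.549, 0.161 to 1.51). Ifit3b, a near copy of Ifit3, had 3 and 5 counts, and reads of the pair may have been split between them. All 3 intervals of the measured Ifit genes held 1, and over the 4 genes the ratio was 1.32 (0.889 to 1.95). Of the remaining type I-linked genes, Xaf1, a pro-apoptotic factor, stood at 23.0 CPM in the old section, against 9.50 CPM in the young (ratio 2.42, 1.61 to 3.64) and Rtp4, a receptor transporter, at 34.9 and 22.5 CPM (1.55, 1.16 to 2.08). Ifi44 had 14 and 9 counts and was under the minimum.

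The RNA sensors divided. Ddx58, which encodes RIG-I, stood at 25.5 CPM in the old section, against 14.0 CPM in the young (1.83, 1.28 to 2.61), and Trim25, the ubiquitin ligase that activates RIG-I, at 60.0 and 33.9 CPM (1.77, 1.41 to 2.22). Ifih1, which encodes MDA5, was level at 19.2 CPM in each section (0.998, 0.686 to 1.43). Dhx58, which encodes LGP2, had 16 counts in the old section, against 29 in the young (1.21, 0.615 to 2.31). Of the transcription factors, Irf7, the amplifier of type I interferon production, stood at 22.1 CPM in the old section, against 10.9 CPM in the young (2.04, 1.37 to 3.03), and the partners Stat2 and Irf9 had ratios of 1.77 (1.54 to 2.04) and 1.79 (1.35 to 2.38). Irf1, induced by interferon gamma, was near level at 20.4 and 22.1 CPM (0.925, 0.646 to 1.31).

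Guanylate-binding proteins coat the vacuoles of intracellular microbes, and their genes lie in 2 clusters. Gbp5, Gbp7, Gbp3 and Gbp2 lie in this order on chromosome 3 (chr3:142496934-142638008 from the first gene's start to the last gene's end, GRCm38.p6) and Gbp9, Gbp4 and Gbp6 on chromosome 5. Gbp2 had 139 counts (59.2 CPM) in the old section, against 52 counts (10.1 CPM) in the young, and its ratio of 5.87 (4.24 to 8.24) was the highest of the measured members. Gbp7, in the same cluster, had 85 counts (36.2 CPM) in the old section, against 362 counts (70.2 CPM) in the young, a ratio of 0.516 (0.402 to 0.655), and was the only measured member whose interval lay below 1. Gbp3 had 76 and 57 counts (2.93, 2.05 to 4.20), and Gbp5 had 42 and 49 (1.88, 1.22 to 2.90). The chromosome 3 cluster held both the highest and the lowest measured ratio of the whole gene set.

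On chromosome 5, Gbp9 had 23 counts in the old section, against 20 in the young (2.53, 1.33 to 4.85), Gbp4 had 20 and 25 (1.76, 0.925 to 3.29) and Gbp6 had 6 and 9, under the minimum. Gbp paralogs are similar in sequence, and the sources used here do not say how reads were shared among them. The immunity-related GTPases, which act on the same vacuoles, were higher for Iigp1, with 34 counts in each section (14.5 CPM in the old and 6.59 CPM in the young, ratio 2.20, 1.32 to 3.64), and for Igtp, at 16.6 and 9.11 CPM (1.82, 1.16 to 2.85). Irgm1, at 60.9 and 55.8 CPM (1.09, 0.886 to 1.34), and Irgm2, at 17.0 and 14.0 CPM (1.22, 0.808 to 1.82), stayed within 1.5-fold with intervals that held 1. The immunoproteasome subunits, which cut peptides for antigen presentation, were both higher, Psmb8 at 78.3 CPM in the old section, against 48.3 CPM in the young (1.62, 1.33 to 1.97) and Psmb9 at 29.4 and 11.8 CPM (2.48, 1.73 to 3.57).

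**Figure D2:**
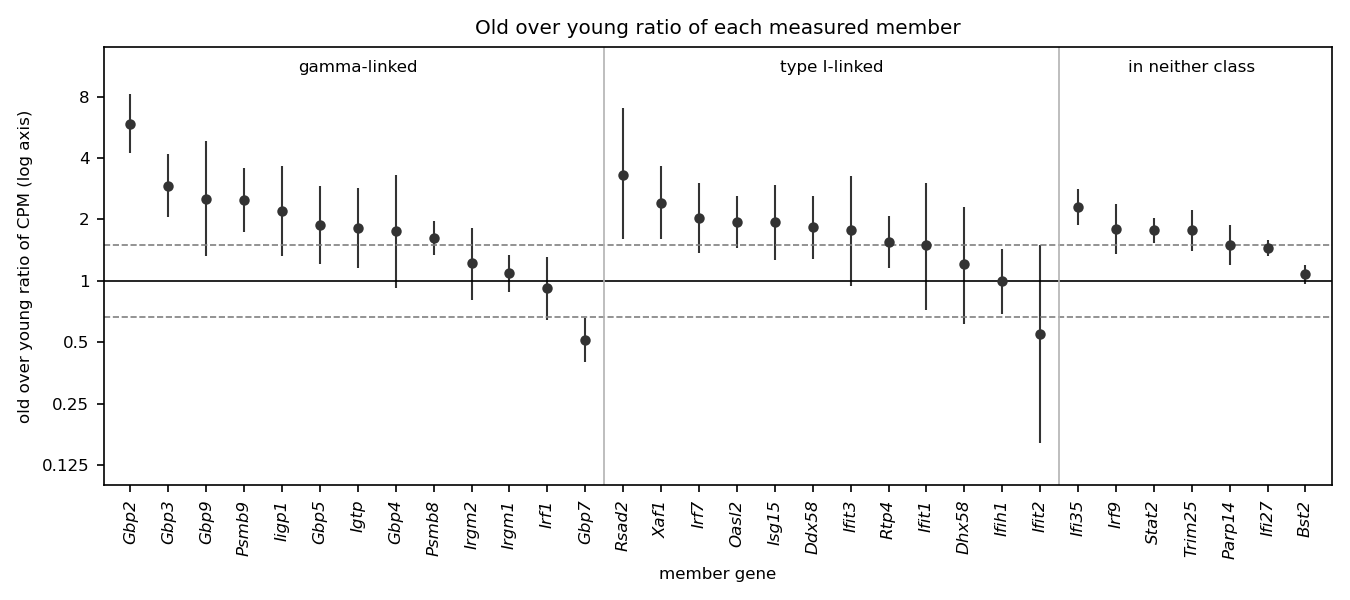
Old over young ratio of CPM of each measured member on a log axis, grouped by class, with exact 95% intervals; the dashed lines mark 1.5-fold either way. Gbp2 at 5.87 and Gbp7 at 0.516 are the extremes.

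The genes in neither class include the most counted members. Ifi27, a small interferon-induced membrane protein, had 763 counts (325 CPM) in the old section, against 1158 counts (224 CPM) in the young, a ratio of 1.45 (1.32 to 1.59). Bst2, which encodes tetherin, a protein that holds budding virions at the cell surface, had 530 counts (226 CPM) and 1078 counts (209 CPM), a ratio of 1.08 (0.971 to 1.20). Ifi35 stood at 82.2 CPM in the old section, against 35.7 CPM in the young (2.30, 1.87 to 2.83), and Parp14, an ADP-ribosyltransferase, at 57.1 and 38.0 CPM (1.50, 1.20 to 1.88).

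To place these genes in the tissue, beads were summed into square bins of 5 bead spacings, and bins with at least 500 counts were kept, 895 of the old and 1338 of the young section. The fifth of bins highest in a marker list was then set against the other bins of the same section. In the old section the bins highest in surface epithelium markers, the cell layer that covers the ovary, stood apart. Gamma-linked members reached 924 CPM there, against 319 CPM in the other bins (ratio 2.89, 2.50 to 3.33), and type I-linked members 390 against 206 CPM (1.89, 1.53 to 2.33). Of 28 members with at least 20 counts over all kept bins of that section, 18 were at least 1.5-fold higher there and 0 lower. Over all genes, 18.6% were higher and 19.2% lower. The epithelium bins were shallower, with a median of 1449 counts against 2254 in the others.

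Gbp2 had the highest ratio of the 28 members, with 81 of its 134 binned counts in those 179 bins, or 270 CPM against 26.6 CPM elsewhere in the old section (ratio 10.2, 7.10 to 14.7). Next came Gbp4 (4.43, 1.57 to 11.8, on 20 counts), Iigp1 (3.99, 1.78 to 8.57), Igtp (3.88, 1.86 to 7.81) and Gbp3 (3.69, 2.17 to 6.15), all gamma-linked. Irgm1, level between ages in the section as a whole, stood at 127 CPM in these bins and 51.1 CPM in the others (2.48, 1.66 to 3.63). Gbp7 was higher there as well (2.25, 1.30 to 3.75), as were Isg15 (2.61, 1.17 to 5.41) and Oasl2 (2.12, 1.23 to 3.50). Bst2, at 220 and 223 CPM, and Stat2, at 167 and 153 CPM, differed little.

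**Figure D3:**
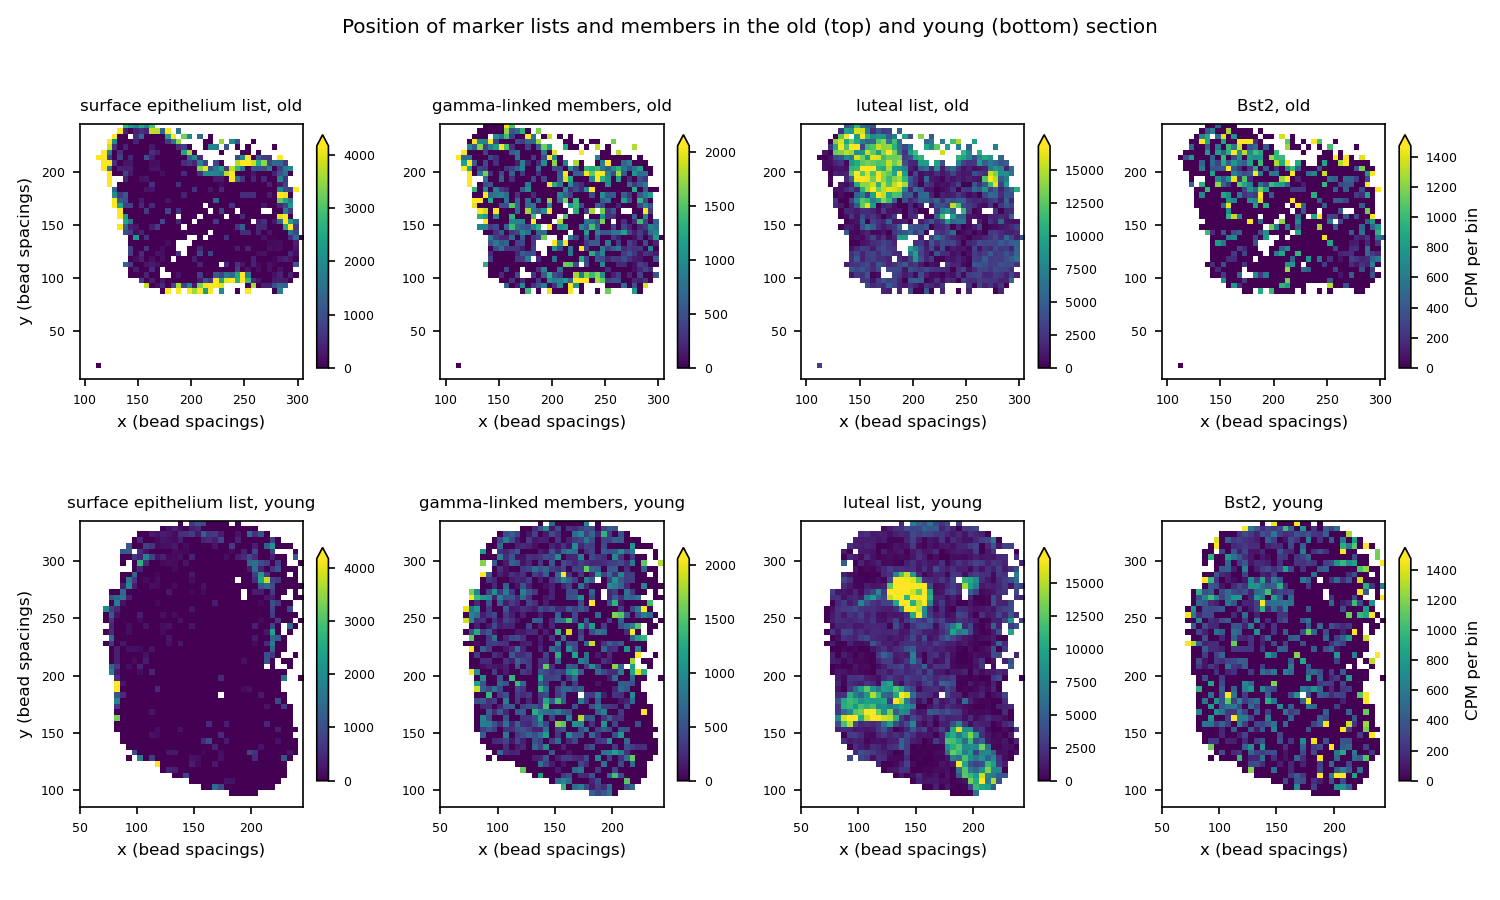
Maps of the old (top) and young (bottom) section, each square a bin of 5 bead spacings with at least 500 counts, coloured by CPM (scale capped at the 98th percentile of all bins). Gamma-linked members are bright along the rim of the old section where the surface epithelium list is high, and Bst2 is bright in the large luteal region at its upper left.

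By distance from the tissue edge, Gbp2 stood at 145 CPM within 10 bead spacings of the edge of the old section, 49.1 CPM between 10 and 25 spacings and 34.8 CPM farther in. Old Gbp3, at 44.0, 20.8 and 32.9 CPM, and old Gbp7, at 38.8, 27.0 and 42.1 CPM, did not fall steadily inward. In the young section the same bands held 20.8, 5.07 and 10.5 CPM of Gbp2, on 10, 8 and 32 counts. Gamma-linked members together stood at 546, 359 and 375 CPM in the old section, against 324, 245 and 289 CPM in the young. All members together stood at 1934, 1458 and 1523 CPM, against 1305, 968 and 1068 CPM, so both sections were highest near the edge. The edge of the young section includes the side on which the tissue reached the border of the array.

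The young section gave no such picture of the epithelium bins. Surface epithelium markers were sparse there, with 536 binned counts, and stood at 417 CPM in the 268 highest bins and 0.525 CPM in the others. Those bins were deeper than the rest (median 4151 against 2923 counts). Gamma-linked members were lower in them, at 230 against 295 CPM (0.780, 0.684 to 0.887), and type I-linked members at 112 against 141 CPM (0.794, 0.655 to 0.956). With the highest 10% of bins in place of the fifth, the ratios turned to 1.17 and 1.39. Gbp2 stood at 10.9 and 9.44 CPM (1.16, 0.576 to 2.20).

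Between ages, the epithelium bins of the old section held 924 CPM of gamma-linked members and those of the young section 230 CPM, a ratio of 4.01 (3.39 to 4.74). The epithelium bins were not alike, with surface epithelium markers at 2931 CPM in those of the old section, against 417 CPM in those of the young. Outside them the ratio was 1.08 (0.980 to 1.19), with 319 CPM in the old section, against 295 CPM in the young. Gbp7 gave 62 of the 637 gamma-linked counts outside them in the old section, against 289 of 1125 in the young. A ratio without Gbp7 was not taken there. For type I-linked members the ratio was 3.50 (2.71 to 4.49) in the epithelium bins and 1.47 (1.29 to 1.67) outside them. Gbp2 was still higher outside them, at 26.6 CPM in the old section, against 9.44 CPM in the young (2.81, 1.81 to 4.42). Gbp7 was lower outside them, at 31.1 and 75.8 CPM (0.410, 0.306 to 0.541), and close within them, at 70.0 CPM in the old section, against 54.6 CPM in the young (1.28, 0.747 to 2.11). In bins of other lists, the gamma-linked ratio between ages was 1.69 for lymphatic endothelium, 1.47 for stromal fibroblast, 1.38 for macrophage and 1.34 for blood endothelium. It was 1.29 for theca, 1.19 for oocyte, 1.14 for smooth muscle and 0.876 for periovulatory bins. These comparisons were chosen after the values were seen, and the part of the larger epithelial share of the old section was not tested beyond them.

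Macrophage-rich bins were higher in both classes at both ages. Type I-linked members had ratios of 1.43 (1.14 to 1.79) in the old section, against 1.45 (1.20 to 1.74) in the young, and gamma-linked members 1.42 (1.20 to 1.69) and 1.51 (1.33 to 1.71). Of the measured members, 10 of 28 were at least 1.5-fold higher in these bins of the old section, against 14.4% of all genes, and 14 of 29 in the young section, against 12.0%. Examples in the old section are Gbp5 (2.55, 1.19 to 5.12), Gbp7 (2.44, 1.44 to 4.01) and Parp14 (2.23, 1.46 to 3.33), and in the young section Gbp2 (2.65, 1.39 to 4.90), Gbp3 (2.24, 1.19 to 4.06) and Psmb8 (2.12, 1.59 to 2.82). With bins of 8 spacings the Gbp7 ratio in the old section was 1.39. Gbp2 in the old section stood at 54.6 CPM in macrophage-rich and 59.0 CPM in other bins (0.925, 0.521 to 1.55), against 20.5 and 7.74 CPM in the young section.

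Bins rich in stromal fibroblast, smooth muscle and blood endothelium markers were also higher in both classes. In bins highest in stromal fibroblast markers, 13 of 28 members were at least 1.5-fold higher in the old section, against 15.6% of all genes, and 14 of 29 in the young section, against 13.1%. Gamma-linked members had ratios of 1.65 (1.41 to 1.93) and 1.57 (1.37 to 1.80) there. Young Gbp2 was 4.69-fold (2.52 to 8.53) higher in these bins, at 31.5 against 6.73 CPM, while old Gbp2 stood at 56.5 and 58.8 CPM. In the young section 15 of 29 members were higher in bins rich in smooth muscle markers (11.9% of all genes) and 15 of 29 in those rich in blood endothelium markers (10.8% of all genes). In the old section the counts were 7 of 28 for smooth muscle (14.1% of all genes) and 11 of 28 for blood endothelium (13.7% of all genes). In bins rich in lymphatic endothelium markers, type I-linked members had ratios of 0.979 (0.784 to 1.21) in the old section, against 1.12 (0.924 to 1.36) in the young, and gamma-linked members 1.29 (1.10 to 1.50) and 1.04 (0.906 to 1.19). Ifit3 in the young section, with 26 counts in all, reached 15.0 CPM in the blood endothelium bins and 3.44 CPM in the others (4.37, 1.82 to 10.2).

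**Figure D4:**
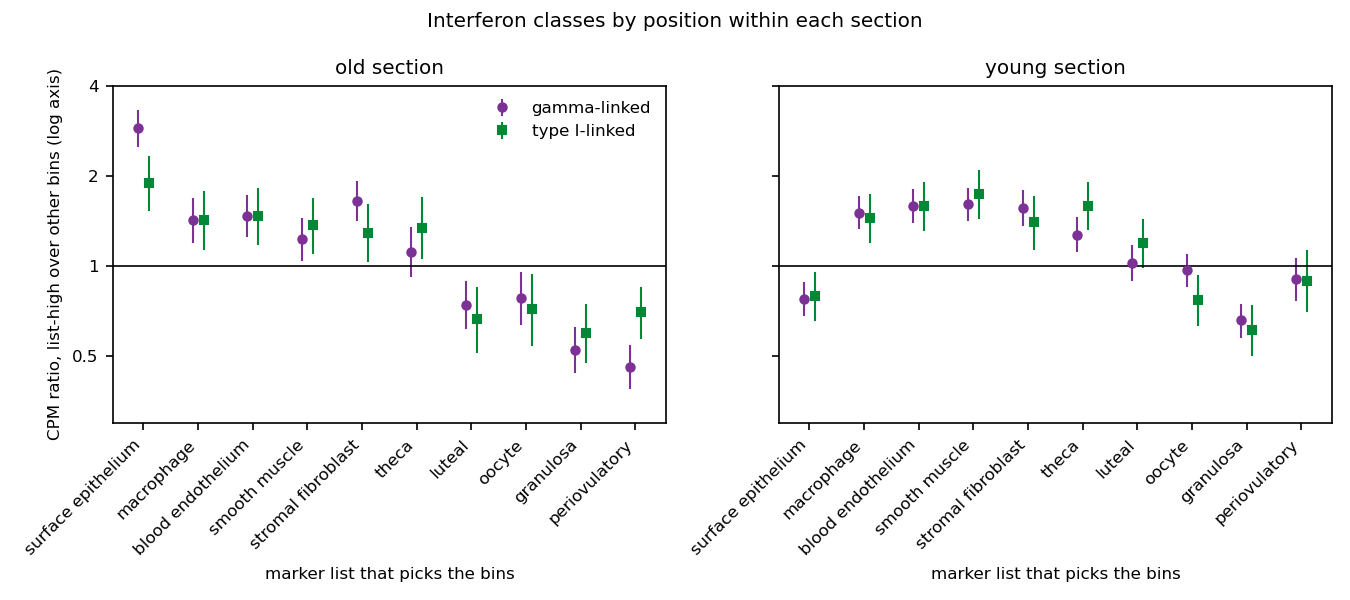
CPM in the bins highest in each marker list over CPM in the other bins of the same section (log axis), for gamma-linked (circles) and type I-linked (squares) members, old section left and young section right, with exact 95% intervals. The surface epithelium bins of the old section give the highest ratio, 2.89, and granulosa bins lie below 1 in both sections.

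Granulosa-rich bins were low in these genes and theca-rich bins were not. In granulosa-rich bins, type I-linked members had ratios of 0.598 (0.474 to 0.748) in the old section, against 0.611 (0.501 to 0.741) in the young, and gamma-linked members 0.526 (0.438 to 0.628) and 0.659 (0.578 to 0.751). Of the measured members, 16 of 28 were at least 1.5-fold lower in the old section, against 16.1% of all genes, and 14 of 29 in the young section, against 24.5%. In periovulatory bins of the old section, which had a median of 4004 counts against 1878 in the others, 16 of 28 members were lower, against 25.5% of all genes, and Gbp3 stood at 5.24 CPM there, against 43.1 CPM in the other bins. In bins rich in theca markers, the cells around the follicle, type I-linked members had ratios of 1.35 (1.06 to 1.70) in the old section, against 1.59 (1.32 to 1.91) in the young, and gamma-linked members 1.12 (0.918 to 1.35) and 1.27 (1.11 to 1.46). Within granulosa-rich bins, the old over young ratio was 1.69 (1.28 to 2.21) for type I-linked and 1.18 (0.963 to 1.45) for gamma-linked members. In oocyte-rich bins of the young section, type I-linked members had a ratio of 0.770 (0.630 to 0.936) and gamma-linked members 0.968 (0.851 to 1.10).

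Irf1 went the other way in the young section, at 43.9 CPM in the oocyte-rich bins and 15.8 CPM in the others (2.78, 1.88 to 4.10), with 51 of its 113 binned counts in those 268 bins. In the old section the bins with an oocyte marker count held Irf1 at a ratio of 1.37, on 46 counts in all.

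Luteal regions, the remains of ovulated follicles that make progesterone, held more Bst2 than the other bins at both ages. Bst2 stood at 496 CPM in the luteal bins of the old section and at 157 CPM in its other bins (3.16, 2.64 to 3.78). In the young section the values were 368 and 173 CPM (2.13, 1.86 to 2.43). Gamma-linked members had a ratio of 0.744 (0.617 to 0.892) in the old section, against 1.03 (0.893 to 1.18) in the young, and type I-linked members 0.666 (0.513 to 0.854) and 1.20 (0.985 to 1.44). In the old section 8 of 28 members were at least 1.5-fold lower in luteal bins, against 26.1% of all genes, which is close to the background. Bst2 was the only member at least 1.5-fold higher there, against 11.5% of all genes. In the young section 6 of 29 were at least 1.5-fold higher, against 12.8%, among them Bst2, Oasl2 (2.25, 1.44 to 3.47) and Psmb8 (1.70, 1.26 to 2.27). Within luteal bins, the old over young ratio was 1.35 (1.13 to 1.60) for Bst2, 1.09 (0.884 to 1.35) for gamma-linked and 1.06 (0.790 to 1.42) for type I-linked members. Outside the luteal bins it was 0.908 (0.790 to 1.04) for Bst2 and 1.91 (1.68 to 2.17) for type I-linked members. Without the quadrant of the old section that holds its largest luteal region, the gamma-linked and type I-linked ratios for luteal bins turned to 1.10 and 1.17, and that of Bst2 was 1.96.

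Bins high in gamma-linked members were higher in type I-linked ones, but how closely the classes met could not be told from so few counts. In the fifth of bins highest in gamma-linked members, type I-linked members were 1.94-fold (1.57 to 2.38) higher in the old and 1.47-fold (1.21 to 1.78) higher in the young section than in the other bins. After each bin was thinned to 500 counts, Pearson's r between the classes was 0.0693 over 895 old bins and 0.0232 over 1338 young bins, which share library and section, and which at this depth held few counts of either class. Moran's I, the likeness of adjoining bins, was 0.0556 in the old section and 0.0123 in the other for gamma-linked members and 0.0209 and 0.00821 for type I-linked members, against 0.560 in both sections for the luteal list. After thinning, the luteal list kept a mean of 2025 and 2104 counts, gamma-linked members 218 and 215, and type I-linked members 123 and 102. The oocyte list gave an I of 0.222 on 62.2 counts in the old section and 0.388 on 909 in the young. The surface epithelium list gave 0.233 on 313 counts and 0.115 on 88.3. Over the thinning draws, I of gamma-linked members ran from 0.0172 to 0.0919 in the old section, against -0.00945 to 0.0346 in the young. That of type I-linked members ran from -0.0131 to 0.0539 and from -0.0136 to 0.0512. No bead held over 4 counts of either class.

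The rest of the interferon pathway was taken from a list of 101 further genes. Of these, 59 were measured, 22 at least 1.5-fold higher and 7 lower in the old section, against 22.6% and 25.4% of all measured genes, and their median ratio was 1.35, against 0.988 over all measured genes. Ligands were almost out of reach: Ifnb1 had 1 count in the old section, against 0 in the young, no other interferon on the list had a count, and Il18, an inducer of interferon gamma, had 64 and 106 counts (1.33, 0.957 to 1.83). Of the receptors, Ifnlr1, which binds interferon lambda, had 6 and 3 counts and was under the minimum. Ifnar1 stood at 62.6 CPM in the old section, against 42.1 CPM in the young (1.49, 1.20 to 1.84), Ifnar2 at 61.3 and 38.2 CPM (1.61, 1.29 to 2.00), Ifngr1 at 47.3 and 26.2 CPM (1.81, 1.39 to 2.34) and Ifngr2 at 69.0 and 80.6 CPM (0.855, 0.709 to 1.03). Il10rb, a subunit shared with the interferon lambda receptor, had a ratio of 1.80 (1.51 to 2.16).

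The kinases and factors downstream did not follow one direction. Jak1 stood at 285 CPM in the old section, against 414 CPM in the young (0.689, 0.631 to 0.752), Jak2 at 64.3 and 65.5 CPM (0.981) and Tyk2 at 31.9 and 23.1 CPM (1.38, 1.02 to 1.86). Young Jak1 stood at 820 CPM in granulosa-rich bins and 258 CPM in the others (3.18, 2.92 to 3.47). Old Jak1 was level by this list, at 287 and 285 CPM (1.01, 0.842 to 1.20). The part of the lower granulosa markers of the old section in the Jak1 ratio was not tested. Irf5 (2.15), Irf3 (1.90) and Stat3 (1.46) had ratios above 1 among the other factors, and Irf8 (0.720) and Irf2 (0.921) had ratios below 1. Socs3, a feedback inhibitor of cytokine receptors, was at 39.2 CPM in the old section, against 9.11 CPM in the young (4.30, 2.99 to 6.25), and Socs1 at 5.96 and 6.20 CPM (0.961).

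Of the measured genes that sense DNA or RNA, Sting1 (2.27, 1.31 to 3.97), Tbk1 (1.55, 1.33 to 1.81) and Adar (1.49, 1.27 to 1.75) had the highest ratios. Eif2ak2, which encodes the kinase PKR, was lowest at 50.2 CPM in the old section, against 94.2 CPM in the young (0.533, 0.432 to 0.653), followed by Cgas (0.643, 0.390 to 1.02) and Samhd1 (0.668, 0.548 to 0.809). Young Cgas stood at 40.4 CPM in oocyte-rich bins and 8.90 CPM in the others (4.54, 2.87 to 7.25). Old bins with an oocyte marker count gave a Cgas ratio of 1.12 (0.279 to 3.35). The part of the lower oocyte markers of the old section in the Cgas age ratio was not tested. Among 27 other measured induced genes, 14 were at least 1.5-fold higher and 1 lower, against 22.6% and 25.4% of all measured genes. Tgtp2, a further immunity-related GTPase with a near copy in Tgtp1, had 21 and 4 counts (11.5, 3.89 to 46.2), Tap1, the peptide transporter whose gene adjoins Psmb9, had 64 and 41 (3.43, 2.28 to 5.20), and Phf11d had 31 and 22 (3.09, 1.73 to 5.61). At the other end were Ifitm1 (0.320, 0.197 to 0.497), Parp12 (0.723, 0.520 to 0.992) and Ifitm2 (0.769, 0.694 to 0.851).

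The 4 measured copies of Oas1 were lower in the old section, while Oasl2, the only measured Oas member, was higher. The mouse genome holds several Oas1 copies besides Oas1a, and some are known for expression in the mouse ovary and oocyte. Oas1c had 18 counts (7.66 CPM) in the old section, against 187 counts (36.3 CPM) in the young, Oas1d 6 and 135, Oas1e 12 and 188, and Oas1h 12 and 111. Their ratios were 0.211 (0.123 to 0.343), 0.0976 (0.0352 to 0.218), 0.140 (0.0712 to 0.251) and 0.237 (0.119 to 0.432). In the young section they lay where oocyte markers lay: 173 of 187 binned Oas1c counts and 180 of 188 Oas1e counts were in the 268 oocyte-rich bins, at 149 against 3.56 CPM for Oas1c and 155 against 2.04 CPM for Oas1e. Oas1d stood at 108 against 2.04 CPM and Oas1h at 87.7 against 2.04 CPM. Oocyte markers themselves, all 11 of them counted in both sections, had an old over young ratio of 0.0738, and their part in the lower Oas1 copies was not tested. The copies are alike in sequence, so reads may have been shared among them. Oas1f had 0 counts in the old section, against 3 in the young, Oas3 had 2 and 2, and Oasl1 had 6 and 4.

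**Figure D5:**
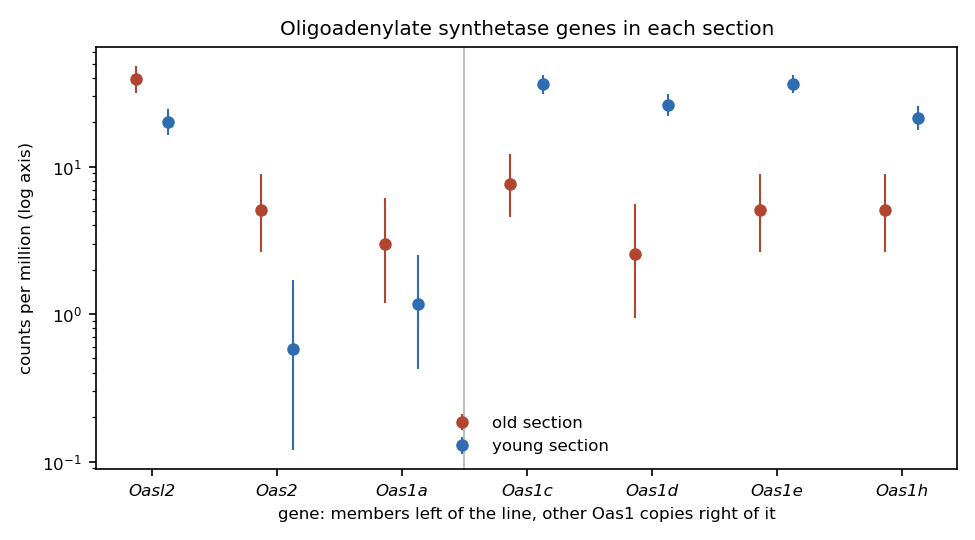
Oligoadenylate synthetase genes in the old (red, left) and young (blue, right) section, in CPM on a log axis with exact 95% Poisson intervals; members stand left of the line and other Oas1 copies right of it. The old points lie above the young ones for the members and below them for the 4 copies.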

How the data were processed

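Slide-seq counts were deposited by the authors as 1 table of whole-number counts per gene and bead for each section, with a second table of bead positions. The submitters' processing notes name the mm10 build; no aligner or setting is named in the sources used here. Positions are deposited as array coordinates on a scale that is not stated, and distances are in bead spacings. Every bead had at least 10 counts in the deposited count tables. No bead or gene was removed here.

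Counts were summed per section and divided by the section total. Ratios carry exact conditional binomial intervals, levels exact Poisson intervals and shares exact Clopper-Pearson intervals, at 95%. Levels are not scaled by gene length and were not compared between genes. Members, classes, marker lists and the named genes (every measured member, receptors and kinases, ligands with a count, and the 3 highest and 3 lowest ratios of other kinds) were chosen with earlier results of these data known, and so support nothing independently. Bins without a list's count were never placed in its high set. Scripts used Python 3.11.15, numpy 2.4.6, scipy 1.17.1 and pandas 2.3.3, and were tested on simulated data. Coordinates come from RefSeq. Results for some pathway genes are not reported here.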

Additional observations from a re-analysis of the deposited data

Results flagged for a closer look

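Among 480 contrasts that both sections allowed, the 13 whose intervals lay on opposite sides of 1 in the old and the young section are given here, each as the level in bins highest in a list over that in the other bins. The difference between sections was not tested in any of them.

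For surface epithelium bins, the ratios were 1.78 in the old section, against 0.863 in the young for all members, 1.89 and 0.794 for type I-linked, 2.89 and 0.780 for gamma-linked and 1.36 and 0.914 for members in neither class, and 2.25 and 0.720 for Gbp7. For granulosa bins, Bst2 had 1.30 in the old section, against 0.712 in the young. For bins with a T, natural killer or innate lymphoid count, Bst2 had 0.467 and 1.40, and members in neither class 0.813 and 1.31. For bins with a B or plasma cell count, all members had 1.28 in the old section, against 0.762 in the young, members in neither class 1.33 and 0.711, and Psmb8 2.14 and 0.432. For red blood cell bins, all members had 0.922 and 1.28, and type I-linked members 0.792 and 1.53. The lymphoid and B cell lists rested on 57 and 129 binned counts in the old section, against 79 and 50 in the young.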

How the results depend on the processing

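No paired analysis was possible because each age has 1 library. Direction held in every alternative for the ratios of all members, of both classes and of Gbp2 and Gbp7 between ages, and no old over young ratio moved to the other side of 1 once its interval lay off it. Without the fifth of bins highest in surface epithelium, an alternative chosen after seeing the data, the ratios were 1.30 for all members, 1.47 for type I-linked and 1.08 (0.980 to 1.19) for gamma-linked members, and without the fifth highest in macrophage markers 1.52, 1.75 and 1.46. Gbp7 was kept in all of these. Without Gbp7 the gamma-linked ratio over the whole sections was 1.76, and the gamma-linked share was 60.8% in the old section, against 60.7% in the young. With only the families the rule names, the shares were 79.1% in the old section, against 83.3% in the young. Gbp2, Gbp3 and Igtp without those epithelium bins had ratios of 2.81, 1.91 and 1.15. Over all their alternatives the age ratios of Rsad2, Gbp4 and Gbp9 ran from 2.27 to 5.33, 1.15 to 2.37 and 1.90 to 4.13, Moran's I of gamma-linked members from 0.0334 to 0.101 in the old section, against 0.00942 to 0.0273 in the young, and the type I-linked ratio in young oocyte bins from 0.497 to 0.771. At 2-fold, 9 members were higher and 0 lower. The count of lower members was 1 with beads of at least 200 counts and with a minimum of 50 counts. Leaving out 1 quadrant gave 1.40 to 1.64 for the ratio of all members, 19 to 23 higher members and 1 to 2 lower members. No share of all genes is given for these alternatives, so these counts of members have no background beside them. In surface epithelium bins of the old section, the gamma-linked ratio was 2.32 with bins of 3 spacings and 2.48 to 2.91 without 1 quadrant. In luteal bins of the old section, the gamma-linked ratio was 0.582 with the highest 10% of bins and 0.603 to 1.10 without 1 quadrant, and the type I-linked ratio 0.573 to 1.17. In luteal bins of the young section, the highest 10% gave 0.872 for gamma-linked and 0.939 for type I-linked members, and leaving out 1 quadrant 0.884 to 1.16 for gamma-linked members. In surface epithelium bins of the young section, the type I-linked ratio turned to 1.11 with bins of 8 spacings, 1.39 with the highest 10% and 1.03 without 1 quadrant, and the gamma-linked ratio to 1.13 and 1.17 with the first and second of these. Leaving out bins with no adjoining bin, 5 of the old and 2 of the young section, moved no ratio out of its interval. Depth limits the sparse members: 6 listed members had under 20 counts in each section, and were not compared by position.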
